A study of Homo sapiens with 18 samples.

Results

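The mitochondrial ribosomal protein genes were taken as every protein-coding gene whose symbol in the deposited tables starts with MRPL or MRPS and a digit. The rule gave 78 genes of the 31004 genes counted, 48 of them large-subunit genes by symbol (MRPL) and 30 small-subunit genes (MRPS), and it used no measured value. They carry 77 distinct symbols, because a readthrough gene, ENSG00000249773, is listed under the symbol MRPS17 as well. RNA came from HCT116 cells, a long-established line grown from a human colorectal carcinoma, and was sequenced in 18 libraries that form 6 groups of 3 biological replicates. The background of the cells was an empty control (Ctrl), overexpression of the long noncoding RNA CRLM1 (gene LINC01767) or an antisense control of it (Antisense), and per the methods CRLM1 was carried on a lentiviral vector and transduced cells were selected with puromycin. On each background the cells received either a construct for overexpression of hnRNPK, a nucleic acid binding protein, or its negative control (NC). The groups were therefore Ctrl_NC, CRLM1_NC, Antisense_NC, Ctrl_hnRNPK, CRLM1_hnRNPK and Antisense_hnRNPK, all in a single cell line.

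The mitochondrial ribosome translates the few messenger RNAs of the mitochondrial genome, all of which encode subunits of the respiratory chain and ATP synthase. Its rRNAs, MT-RNR1 of the small subunit and MT-RNR2 of the large subunit, are made inside the organelle, while all of its proteins are encoded in the nucleus, translated in the cytosol and imported. Some of the proteins have a bacterial homolog and others are found in mitochondria alone. In symbols the letter L or S names the subunit, with exceptions. MRPS30 and MRPS18A sit in the large subunit, and MRPS36 is now counted as a component of the 2-oxoglutarate dehydrogenase complex.

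Genes of this family were spread over 21 chromosomes, and the RefSeq table of start sites (GRCh38.p14) held an entry for 68 of the 78. Shown here are the 250 bases before the start of 5 genes: MRPL1 and MRPS10, which were higher with the hnRNPK construct, MRPL41 and MRPS26, which were lower, and MRPS18A, which had the largest increase in the antisense background. The windows lie on GRCh38 at chr4:77862580-77862829 (plus strand) for MRPL1, chr6:42217862-42218111 (minus strand) for MRPS10, chr9:137551629-137551878 (plus strand) for MRPL41, chr20:3045802-3046051 (plus strand) for MRPS26 and chr6:43687792-43688041 (minus strand) for MRPS18A. Each runs 5′ to 3′ and ends at the base before the annotated start. Capitals mark matches, on either strand, to the letters of 6 known motifs. These were CCGGAAG for the ETS family, which includes the GABP regulators of mitochondrial genes, AAGATGGC for the zinc finger factor YY1, GCGCANGCG for the respiratory regulator NRF1, GGGCGG for the SP family of zinc finger factors, CACGTG for the E-box that MYC and others bind, and CCAAT for the box of that name.
MRPL1: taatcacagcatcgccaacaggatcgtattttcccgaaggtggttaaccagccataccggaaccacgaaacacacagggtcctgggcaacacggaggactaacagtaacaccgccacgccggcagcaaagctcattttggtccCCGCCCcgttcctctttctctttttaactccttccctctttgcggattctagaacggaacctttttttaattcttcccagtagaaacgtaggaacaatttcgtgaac
MRPS10: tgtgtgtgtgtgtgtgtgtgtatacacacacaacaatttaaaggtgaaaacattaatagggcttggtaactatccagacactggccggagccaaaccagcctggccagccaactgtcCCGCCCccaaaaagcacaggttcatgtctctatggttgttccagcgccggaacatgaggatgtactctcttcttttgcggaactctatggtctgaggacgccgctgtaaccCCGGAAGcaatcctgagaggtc
MRPL41: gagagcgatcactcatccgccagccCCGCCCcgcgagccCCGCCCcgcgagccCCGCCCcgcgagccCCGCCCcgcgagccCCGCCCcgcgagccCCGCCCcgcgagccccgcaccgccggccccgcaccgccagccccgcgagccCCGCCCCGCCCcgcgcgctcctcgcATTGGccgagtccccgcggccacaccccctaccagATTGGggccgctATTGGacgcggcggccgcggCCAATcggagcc
MRPS26: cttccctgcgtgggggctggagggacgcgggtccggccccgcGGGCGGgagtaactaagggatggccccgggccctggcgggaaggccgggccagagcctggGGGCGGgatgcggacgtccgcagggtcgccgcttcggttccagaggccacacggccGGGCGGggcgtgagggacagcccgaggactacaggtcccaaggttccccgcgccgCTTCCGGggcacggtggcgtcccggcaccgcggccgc
MRPS18A: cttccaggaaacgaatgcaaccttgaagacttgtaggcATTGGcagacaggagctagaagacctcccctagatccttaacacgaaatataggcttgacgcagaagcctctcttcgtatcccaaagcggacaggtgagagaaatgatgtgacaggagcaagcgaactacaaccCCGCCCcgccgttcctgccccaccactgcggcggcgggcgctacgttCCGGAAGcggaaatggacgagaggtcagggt

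The letters of the ETS motif stood in the promoter window (250 bases before to 50 after the start, 300 in all) of 29 of the 68 genes, or 42.6%, against 12.2% of all 27305 genes with a window and 18.7% of the 12191 protein-coding genes of the series. The YY1 letters stood in 21 of 68, or 30.9%, against 3.52% and 5.45%. NRF1 letters were found in 20.6% (14 of 68), with 26.8% of the large-subunit and 11.1% of the small-subunit genes, against 9.02% and 14.4%. The SP letters were found in 60.3%, between the 48.3% of all genes and the 71.7% of protein-coding genes, the E-box in 13.2% against 8.77% and 11.7%, and the CCAAT box in 33.8% against 39.7% and 42.2%. These are matches of letters, with no test, and say nothing of binding in these cells. The 250-base windows of MRPL41 and MRPS26 were 82.8% and 77.2% G and C, and those of MRPL1, MRPS10 and MRPS18A were 49.2%, 50.8% and 56.0%. In the MRPL41 window the SP letters matched 8 times and the CCAAT letters 4 times, and a pair of the SP matches shares bases. No matches of different motifs overlapped in these 5 windows.

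All 78 genes had counts in every library. Compared per length, as FPKM (fragments normalized to the exon length of the gene and the mapped fragments of the library), their means over the 18 libraries ran from 0.475 to 70.6 with a median of 17.3, and the median was 19.8 for large-subunit and 16.5 for small-subunit genes. The most abundant small-subunit genes were MRPS34 (70.6 FPKM), MRPS24 (60.1) and MRPS15 (43.3). MRPL54 (69.7), MRPL24 (68.2) and MRPL17 (62.3) led the large subunit. At the low end were MRPL50 (2.61) and MRPL35 (2.99) of the large subunit and MRPS31 (2.52) and MRPS17 (0.475) of the small subunit. MRPS17, the homolog of bacterial protein S17, had 3 to 68 counts per library. Its values are uncertain, because its exons overlap the readthrough gene on chromosome 7 (55951877 to 55956500 and 55887277 to 55955239, both on the plus strand). How reads in shared exons were assigned to a gene was not given in the sources used here. The plot of levels shows that genes of 1 ribosome differed in mRNA level over a wide range.

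**Figure D1:**
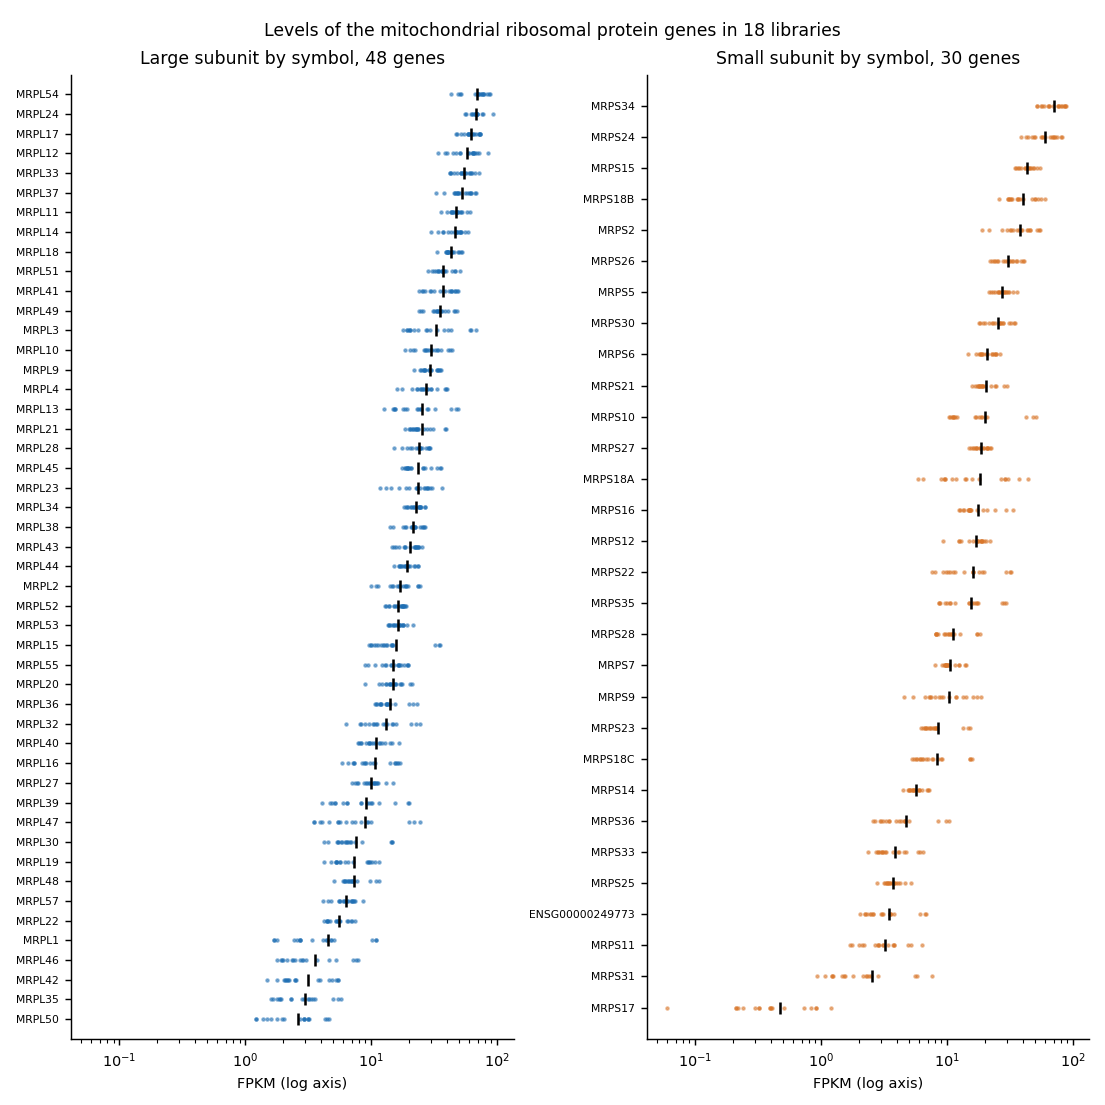
FPKM of each of the 78 genes (x axis, log scale) in the 18 libraries (points), with the mean over libraries as a black line, for the 48 large-subunit genes (left) and the 30 small-subunit genes (right), ordered by mean. MRPS34 and MRPL54 lead with means of 70.6 and 69.7 FPKM, and MRPS17 is lowest at 0.475.

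Together the genes took 0.301% to 0.424% of the counts of a library. The share was 0.316% ± 0.00366 in Ctrl_NC, 0.342% ± 0.00386 in CRLM1_NC and 0.358% ± 0.00617 in Antisense_NC, and these groups of 3 did not overlap (mean ± SD). In such bulk RNA fewer cells that express a gene and less RNA per cell cannot be told apart. With the construct Ctrl_hnRNPK had 0.319%, CRLM1_hnRNPK 0.333% and Antisense_hnRNPK 0.407% ± 0.0202, the highest of the 6 groups. Summed FPKM of the large subunit exceeded that of the small subunit in every library by 1.82 to 2.21 times. Mean sums were 1078 and 525 in Ctrl_NC and 1340 and 707 in Antisense_hnRNPK. The sums run over 48 and 30 genes, so the ratio also carries the number of genes. It was 1.92, 1.82 and 1.953 in Antisense_hnRNPK, where the third library lay above the lowest of CRLM1_NC (1.949).

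Library totals ran from 19732681 to 27039520 counts. HNRNPK was at 454 to 480 CPM (counts scaled to library size with TMM factors) in Ctrl_NC and CRLM1_NC and at 420 to 431 in Antisense_NC, and at 627 to 717 in the first 2 libraries of Ctrl_hnRNPK and CRLM1_hnRNPK, with 533 to 573 in Antisense_hnRNPK. The third libraries of Ctrl_hnRNPK and CRLM1_hnRNPK had 490 and 581 CPM, and correlated with their own replicates at 0.956 to 0.965 (Pearson, log2 CPM over expressed genes), against 0.989 and 0.990 between the other two. The study left these 2 libraries out. They are kept here as labelled. The main counts of family genes that passed are given with and without these 2 libraries. Other values of the 2 groups are mostly given 1 way, with all libraries unless the text says the third was left out. LINC01767 had 0 counts in the Ctrl libraries, 585 to 670 CPM in CRLM1 and 38.4 to 49.8 CPM in Antisense libraries, where strand was not stated for the counting. Of the 8 epithelial markers checked, KRT19, KRT8, KRT18, EPCAM and CDH1 were at 13.2 FPKM or more in every library, CDX2 was at 0.450 to 3.27, and CEACAM5 and VIL1 stood at 0.11 or less. PTPRC, PECAM1 and ALB, markers of leukocytes, endothelium and liver, did not pass 0.05 FPKM, and COL1A1, a fibroblast marker, was at 1.66 to 3.90.

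CRLM1_NC was compared with Ctrl_NC to ask how cells with CRLM1 differed from the empty control. Whether replicates came from separate transductions was not given in the sources used here. An effect of CRLM1 and a difference between the selected cells therefore cannot be told apart. Changes were small, and 18 of 78 genes passed an adjusted p of at most 0.05 (edgeR's quasi-likelihood test, Benjamini-Hochberg adjustment over all genes tested, as for every adjusted p below unless another test is named), against 34.3% of all genes tested. Of the MRPL genes 7 were higher and 2 lower, and of the MRPS genes 6 were higher and 3 lower. The median log2 fold change was 0.05 and 0.12 against 0.01 for all genes. Among the 6 are MRPS18A and MRPS30, which sit in the large subunit. On log2(FPKM + 1), tested with limma, 22 were higher and 2 lower, beside 23.9% of all genes. When the same comparison was taken from a single fit of all 18 libraries, in which the spread of the hnRNPK groups entered the error, 0 genes of the family passed, beside 0.651% of all genes.

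MRPL47 (chr3:179588285-179604649, minus strand), the homolog of bacterial L29 at the exit of the peptide tunnel, was at 6.94, 6.84 and 7.98 CPM in Ctrl_NC and at 10.2, 10.3 and 10.5 CPM in CRLM1_NC. The groups did not overlap, and MRPL47 rose by 0.49 ± 0.13 on the log2 scale (SE, adjusted p = 0.00299). MRPS18A (chr6:43671202-43687791, minus strand), one of the paralogs of bacterial S18, stood at 16.5, 14.7 and 14.4 CPM against 20.4, 20.7 and 22.8 CPM, again without overlap (log2 fold change 0.47 ± 0.10, adjusted p = 0.000134). MRPS30, a large-subunit protein despite its letter, rose by 0.39 ± 0.06 on the log2 scale, with 43.2, 46.6 and 43.4 CPM in Ctrl_NC and 61.6, 55.3 and 59.2 CPM in CRLM1_NC. MRPS9 (log2 fold change 0.45), MRPL16 (0.34), MRPL13 (0.28), MRPL37 (0.21) and MRPS15 (0.19) rose as well. The largest fall was that of MRPS25 (chr3:15009611-15065339, minus strand), a mitochondria-specific small-subunit protein, from 27.8, 24.4 and 26.7 CPM to 20.1, 20.98 and 20.7 CPM, with a log2 fold change of -0.36 ± 0.08 (adjusted p = 0.00069). MRPS21 (-0.30), MRPS26 (-0.24), MRPL42 (-0.19) and MRPL14 (-0.18) also fell.

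Antisense_NC was compared with Ctrl_NC to see how the antisense control itself differed from the empty control. The differences were larger and went both ways. Of the 78 genes 54 passed, 33 higher and 21 lower, against 66.5% of all genes tested. By symbol the large subunit had 17 higher and 13 lower (median log2 fold change 0.01) and the small subunit 16 higher and 8 lower (median 0.17). The median over all genes was -0.00. Only MRPS18A and MRPL47 passed a 2-fold difference, against 14.1% of all genes that passed both the adjusted p and that fold. With RLE size factors 33 were higher and 22 lower, and the share of all genes is not given for that setting. On FPKM, where measure, filter and test all differ from those of the counts, 50 were higher and 10 lower beside 56.6% of all genes, and the median of all genes was then 0.14 above that of the counts (log2). In a single fit of all 18 libraries 19 genes of the family passed, beside 32.5% of all genes.

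MRPS18A was at 40.5, 34.9 and 38.5 CPM in Antisense_NC, above all Ctrl_NC and CRLM1_NC libraries, and its log2 fold change over Ctrl_NC was 1.29 ± 0.09 (adjusted p = 5.44e-16). Its 2 paralogs rose less. MRPS18B rose by 0.40 from a mean of 69.2 to 93.5 CPM, and MRPS18C by 0.38 from 13.2 to 17.6 CPM. MRPL47 was at 16.1, 16.7 and 15.9 CPM (log2 fold change 1.12 ± 0.12, adjusted p = 8.45e-11), without overlap with Ctrl_NC. MRPL16 (0.83), MRPL39 (0.72), MRPL46 (0.71), MRPS9 (0.78) and MRPS35 (0.63) followed, and MRPS17 (0.94 ± 0.35) rested on few counts. MRPL46 and MRPS11 lie head to head on chromosome 15 (88459477 to 88467390 on the minus strand and 88467453 to 88480776 on the plus strand).

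Among the genes that were lower in Antisense_NC, MRPS26 (chr20:3046052-3048250, plus strand) went from 64.5, 61.7 and 57.5 CPM to 40.2, 41.6 and 44.4 CPM, with a log2 fold change of -0.58 ± 0.06 (adjusted p = 2.37e-10). MRPL33 (-0.51), MRPL51 (-0.50), MRPL53 (-0.45) and MRPL41 (-0.45) of the large subunit and MRPS24 (-0.50), MRPS34 (-0.48) and MRPS25 (-0.46) of the small subunit were also lower. The transcripts of the family ranged from 34.8% to 66.7% G and C, and across the 78 genes Spearman's rho of log2 fold change with GC content was -0.42, beside -0.30 over all genes. With the GC and length trend of each library removed, 57 passed (37 higher, 20 lower), against 64.3% of all genes, MRPS18A was at 1.52, and MRPL41 went from -0.45 to 0.06.

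CRLM1_NC against Antisense_NC compared the sense with the antisense RNA. Of the 78 genes 45 passed, 20 higher and 25 lower in CRLM1_NC, against 56.4% of all genes. By symbol 12 were higher and 16 lower in the large subunit and 8 and 9 in the small subunit. On FPKM the split was 10 higher and 37 lower, beside 45.3% of all genes. In the single fit of all libraries 9 passed, beside 15.0% of all genes. This comparison shares its libraries with the preceding comparisons. MRPL1 (chr4:77862830-77952785, plus strand), the homolog of the bacterial stalk protein L1, was at 3.64, 3.45 and 5.54 CPM in CRLM1_NC and at 8.93, 8.15 and 8.10 CPM in Antisense_NC, without overlap (log2 fold change -0.98 ± 0.17, adjusted p = 4.15e-06). MRPS31 (-0.96), MRPS18A (-0.81), MRPL50 (-0.71), MRPL47 (-0.63), MRPL39 (-0.59), MRPS10 (-0.56) and MRPS35 (-0.49) were lower in CRLM1_NC too. MRPL41 (0.51), MRPL23 (0.48), MRPS24 (0.48), MRPL33 (0.45), MRPS5 (0.44), MRPS33 (0.40), MRPL51 (0.40) and MRPS34 (0.37) were higher.

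The cytosolic ribosomal proteins and the nuclear-encoded respiratory chain subunits are the gene sets nearest in function. In CRLM1_NC against Ctrl_NC 63 of 81 cytosolic ribosomal proteins were lower and 2 higher (median log2 fold change -0.29), and 39 of 77 respiratory chain genes were lower and 2 higher (-0.13), against 5 lower and 13 higher in the mitochondrial ribosomal family (median 0.09). In Antisense_NC against Ctrl_NC the counts were 73 lower and 1 higher of 80 (-0.48), 63 lower and 1 higher of 77 (-0.37), and 21 lower and 33 higher of 78 (0.07). Of all genes tested 34.3% and 66.5% passed in these comparisons. These counts come from the edgeR fits alone. On FPKM the family had 22 higher and 2 lower, and 50 higher and 10 lower, and the other 2 sets are not given on FPKM here. The difference between the sets was not tested.

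hnRNPK comparisons asked what the construct changed on each background. In Ctrl_hnRNPK against Ctrl_NC 0 of 78 genes passed with all libraries (12 at an unadjusted p under 0.05, and 0 by DESeq2), beside 0% of all genes. In CRLM1_hnRNPK against CRLM1_NC the count was also 0 (3 at an unadjusted p under 0.05, and 0 by DESeq2), beside 0% of all genes. Both counts were set by the third library. Without it 54 genes passed in Ctrl_hnRNPK, 20 higher and 34 lower, against 59.6% of all genes, and 52 passed in CRLM1_hnRNPK, 20 higher and 32 lower, against 58.5%. In Antisense_hnRNPK, where no library stood apart, 57 passed with all libraries, 33 higher and 24 lower, against 63.9%, and MRPS10, MRPS31 and MRPL23 also passed a 2-fold difference, against 13.4% of all genes. On FPKM 40 were higher and 15 lower in Antisense_hnRNPK, beside 53.0% of all genes. The shares of the family were thus near those of all genes on each background. Shares of all genes at an unadjusted p and by DESeq2 are not given here.

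**Figure D2:**
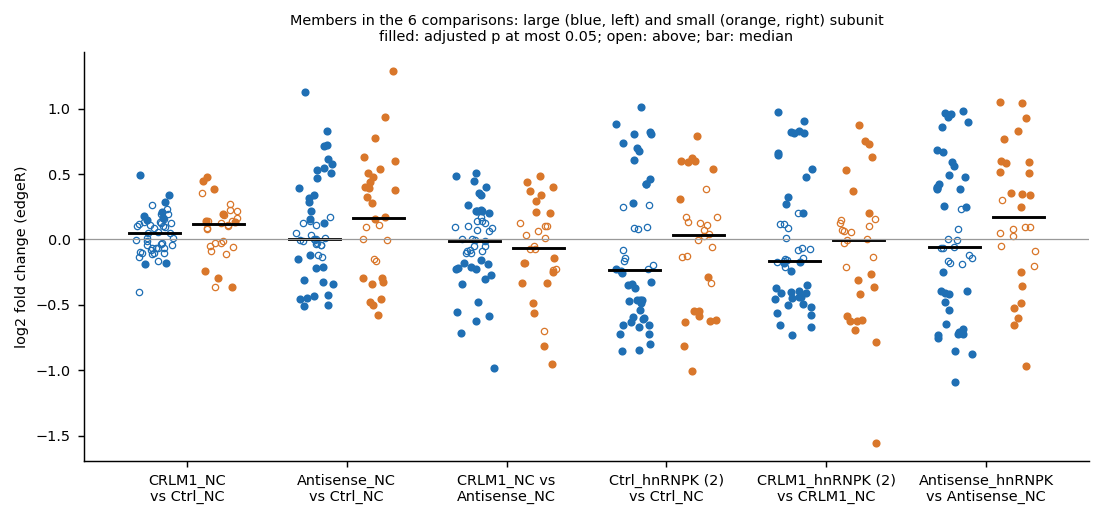
Log2 fold change (y axis, edgeR) of the 78 genes in the 6 comparisons, large-subunit genes in blue on the left and small-subunit genes in orange on the right of each pair. Filled points passed an adjusted p of 0.05, open points did not, bars are medians, and (2) marks groups taken without the third library. Every comparison holds genes on both sides of 0, and MRPS18A stands highest at 1.29 in Antisense_NC against Ctrl_NC.

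MRPL42 (chr12:93467514-93516214, plus strand), a mitochondria-specific large-subunit protein, was at 51.2, 49.3 and 48.1 CPM in Ctrl_NC and at 99.2, 101 and 48.2 CPM in Ctrl_hnRNPK. The first 2 construct libraries were above all Ctrl_NC libraries and the third lay within them. Its log2 fold change was 0.70 with all libraries (adjusted p = 0.32) and 1.01 ± 0.07 without the third (adjusted p = 4.78e-09). In the CRLM1 background it was at 44.7, 39.5 and 47.4 CPM without and at 79.2, 81.3 and 36.6 CPM with the construct (0.91 without the third library), and in the antisense background at 49.4, 50.1 and 49.6 CPM without and 93.0, 83.8 and 95.6 CPM with it (0.86).

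MRPS10 (chr6:42206807-42217861, minus strand), the homolog of bacterial S10, was at 33.7, 33.6 and 34.2 CPM in Ctrl_NC, 47.8, 56.4 and 31.5 CPM in Ctrl_hnRNPK, 48.7, 52.4 and 49.9 CPM in Antisense_NC and 108, 107 and 97.7 CPM in Antisense_hnRNPK. All 3 Antisense_hnRNPK libraries were above all others, with a log2 fold change of 1.04 ± 0.08 over Antisense_NC (adjusted p = 1.72e-07). In the antisense background MRPL1 rose from 8.93, 8.15 and 8.10 CPM to 16.19, 16.23 and 17.6 CPM, or by 0.98 on the log2 scale. MRPL3, the homolog of bacterial L3 near the peptidyl transferase center, rose by 0.88 in Ctrl_hnRNPK without the third library and by 0.94 in Antisense_hnRNPK. MRPS31 rose by 1.05 in Antisense_hnRNPK, and MRPL47 by 0.97, MRPL15 by 0.96, MRPS33 by 0.93 and MRPS36 by 0.83.

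MRPS2 (chr9:135499984-135504673, plus strand), the homolog of bacterial S2, moved the other way, with 83.5, 90.4 and 87.5 CPM in Ctrl_NC and 47.1, 40.0 and 103 CPM in Ctrl_hnRNPK. The third construct library was above all Ctrl_NC libraries and the other two were far below them, and the log2 fold change without it was -1.004 ± 0.09 (adjusted p = 3.3e-08), against -0.50 with it (adjusted p = 0.375). MRPS2 was at 99.8, 89.3 and 101 CPM in CRLM1_NC and 58.7, 63.3 and 114 CPM in CRLM1_hnRNPK (-0.63 without the third library), and fell from 106, 110 and 110 CPM to 56.3, 52.1 and 59.2 CPM in the antisense background (-0.97 ± 0.08, adjusted p = 2.18e-07). MRPL23 (chr11:1947278-1984522, plus strand), whose bacterial homolog L23 lies at the tunnel exit, fell from 47.4, 49.99 and 47.6 CPM to 25.4, 21.6 and 21.4 CPM in Antisense_hnRNPK, with a log2 fold change of -1.09 ± 0.09 (adjusted p = 3.78e-07). MRPL41 (chr9:137551879-137552555, plus strand), a mitochondria-specific large-subunit protein, was at 77.3, 79.6 and 74.5 CPM in Ctrl_NC and 40.4, 48.3 and 84.5 CPM in Ctrl_hnRNPK (-0.80 without the third library).

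**Figure D3:**
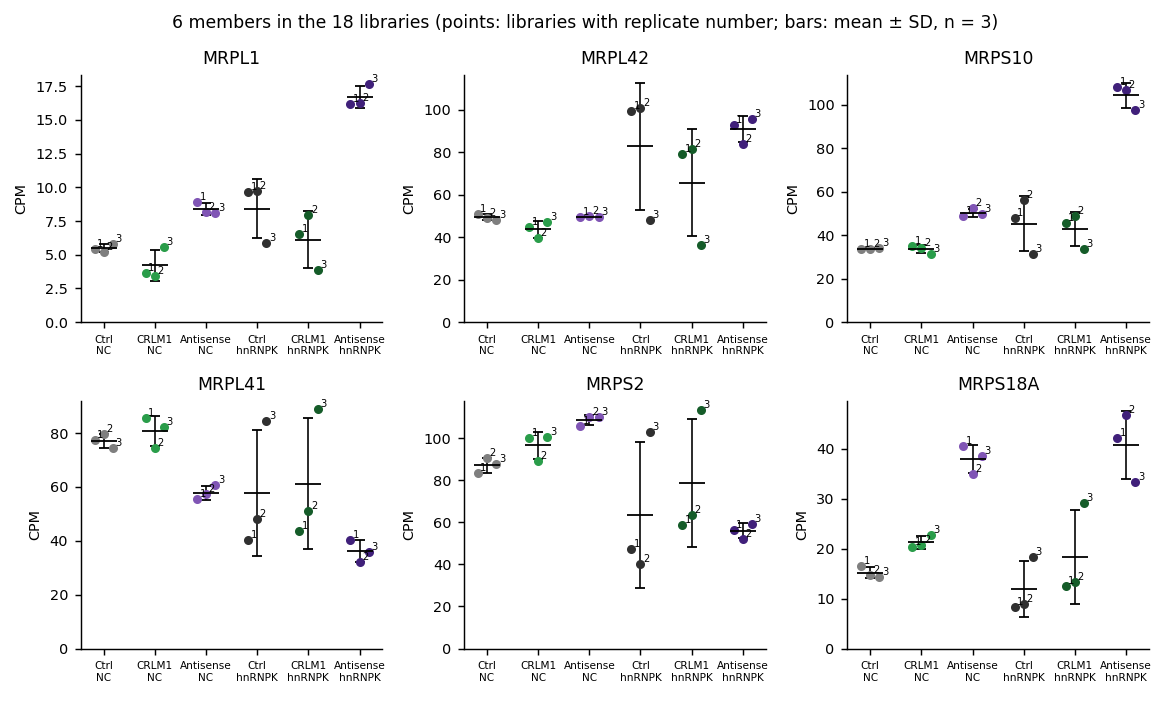
CPM (y axes, from 0) of MRPL1, MRPL42, MRPS10, MRPL41, MRPS2 and MRPS18A in the 18 libraries, as points numbered by replicate, with the mean ± SD of 3 libraries per group. The third Ctrl_hnRNPK and CRLM1_hnRNPK libraries lie on the side of the NC libraries, as for MRPL42 at 48.2 and 36.6 CPM beside 99.2 and 101 and 79.2 and 81.3 CPM.

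Other named genes that rose without the third library were MRPL1 (0.82), MRPL50 (0.81), MRPS22 (0.79), MRPS10 (0.62), MRPS36 (0.60) and MRPS35 (0.60) in Ctrl_hnRNPK, and MRPL50 (0.98), MRPS31 (0.88), MRPL1 (0.83), MRPL39 (0.82), MRPS22 (0.75), MRPS9 (0.73) and MRPS35 (0.63) in CRLM1_hnRNPK. Those that fell were MRPL55 (-0.85), MRPL12 (-0.85), MRPS18A (-0.81), MRPL54 (-0.72), MRPS26 (-0.63) and MRPS12 (-0.62) in Ctrl_hnRNPK, and MRPS12 (-0.78), MRPL41 (-0.73), MRPS18A (-0.69), MRPL12 (-0.67), MRPL10 (-0.65) and MRPL2 (-0.58) in CRLM1_hnRNPK. MRPL10 and MRPL12 form the stalk that binds translation factors, and MRPS12 is the homolog of a protein of the decoding center. MRPS17 (-1.55 ± 0.56) had as few as 3 counts in a CRLM1_hnRNPK library. In Antisense_hnRNPK MRPL10 (-0.88), MRPL55 (-0.86), MRPL49 (-0.75), MRPS24 (-0.65), MRPS26 (-0.60) and MRPS34 (-0.53) fell.

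Taking Ctrl_hnRNPK and CRLM1_hnRNPK without the third library, 16 of the 78 genes passed as higher on all 3 backgrounds and 20 as lower, beside 21.2% and 22.0% of the 13969 genes tested on all 3. The higher genes were MRPL1, MRPL3, MRPL13, MRPL19, MRPL32, MRPL35, MRPL39, MRPL42, MRPL45, MRPL47 and MRPL50 of the large subunit and MRPS9, MRPS10, MRPS22, MRPS33 and MRPS35 of the small subunit. The lower genes were MRPL2, MRPL4, MRPL10, MRPL12, MRPL14, MRPL23, MRPL28, MRPL37, MRPL38, MRPL41, MRPL43, MRPL49, MRPL53 and MRPL55 of the large subunit and MRPS2, MRPS6, MRPS12, MRPS24, MRPS26 and MRPS34 of the small subunit. MRPL21 and MRPS16, 2 genes, passed in opposite directions on different backgrounds, and 7 passed on none (MRPL18, MRPL22, MRPL44, MRPS14, MRPS15, MRPS25 and MRPS30). The shares of all genes with these patterns were not counted, so the counts are not read as a trait of the family.

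The higher and lower genes differed in base composition. Transcripts of the 16 higher genes were 35.0% to 46.3% G and C (median 40.8%) and those of the 20 lower genes 47.5% to 66.7% (median 59.3%), so the sets did not overlap. Of the 39 genes under the median GC content of the family (47.8%), 20 were higher and 3 lower in Ctrl_hnRNPK without the third library, 19 and 4 in CRLM1_hnRNPK without the third library, and 27 and 3 in Antisense_hnRNPK. Of the 39 at or over it, 0 were higher and 31 lower, 1 and 28, and 6 and 21. Across the family Spearman's rho of log2 fold change with GC was -0.84, -0.81 and -0.75, and over all genes tested -0.75, -0.77 and -0.72. The genes share libraries, and rho is given as a description. Promoter windows (300 bases) had a median GC of 56.8% for 14 of the higher and 65.7% for 17 of the lower genes, beside 58.3% for all genes. SP letters stood in 64.3% and 88.2% of them.

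**Figure D4:**
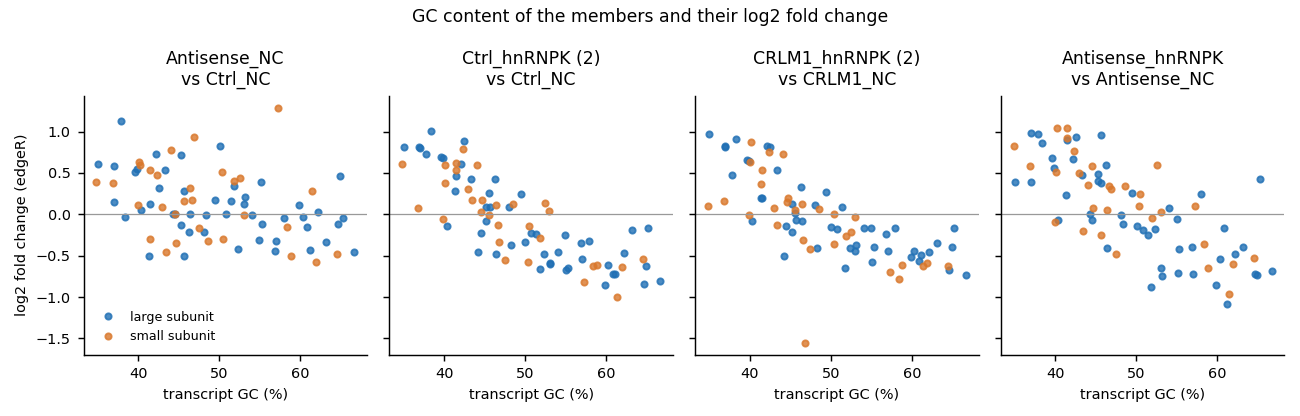
Log2 fold change (y axis, edgeR) of the 78 genes against the GC content of the transcript (x axis, percent) in Antisense_NC against Ctrl_NC and in the 3 hnRNPK comparisons, large-subunit genes in blue and small-subunit genes in orange. (2) marks groups without the third library. Most genes of low GC lie above 0 and most genes of high GC below it in the hnRNPK panels, with Spearman's rho of -0.84, -0.81 and -0.75, and -0.42 in the first panel.

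With the GC and length trend of each library removed, fewer genes passed. The counts were 28 in Ctrl_hnRNPK (5 higher, 23 lower) and 30 in CRLM1_hnRNPK (12 higher, 18 lower), both without the third library, and 40 in Antisense_hnRNPK (21 higher, 19 lower), against 24.7%, 26.2% and 39.1% of all genes. MRPL42 kept its direction at 0.30, 0.32 and 0.22 but was above the threshold in Antisense_hnRNPK (adjusted p = 0.0505). MRPS2 was at -0.47 and -0.41 in Ctrl_hnRNPK and Antisense_hnRNPK, and at -0.08 in CRLM1_hnRNPK (adjusted p = 0.377). MRPS10 (0.53), MRPL15 (0.68) and MRPL23 (-0.53) still passed in Antisense_hnRNPK. MRPL1 (0.26) did not pass there, MRPL41 changed sign from -0.69 to 0.06 without passing, and MRPS34 went from -0.53 to 0.12. The removal takes out any change that follows GC content, whatever its source, and its part in the result was not tested further.

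Whether the effect of the construct differed between backgrounds was tested as an interaction. For CRLM1 minus Ctrl 0 genes of the family passed with all libraries (0 at an unadjusted p under 0.05, and 0 by DESeq2), beside 0% of all genes. Without the third library of every hnRNPK group 2 passed, MRPL17 (0.44 ± 0.10, adjusted p = 0.0106) and MRPS2 (0.41 ± 0.11, adjusted p = 0.0349), beside 3.45% of all genes. For Antisense minus Ctrl the count was 0 with all libraries (14 at an unadjusted p under 0.05, and 2 by DESeq2), beside 0% of all genes, and 14 without the third libraries (12 higher, 2 lower), beside 16.0%. For CRLM1 minus Antisense 1 gene, MRPL15, passed with all libraries beside 1.12% of all genes, and 31 passed without the third libraries (11 higher, 20 lower), beside 26.5%. For the interactions the shares of all genes at an unadjusted p or by DESeq2 are not given here.

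MRPL15 (chr8:54135241-54148514, plus strand), the homolog of bacterial L15, showed the difference with all libraries in. It was at 20.6, 20.5 and 21.6 CPM in Antisense_NC and at 42.9, 39.9 and 39.8 CPM in Antisense_hnRNPK, and at 19.9, 17.8 and 20.3 CPM in CRLM1_NC and 18.4, 19.7 and 16.9 CPM in CRLM1_hnRNPK. The construct groups of the antisense background stood apart, and those of the CRLM1 background overlapped. The interaction was -1.02 ± 0.19 on the log2 scale (adjusted p = 0.0270) and -0.96 ± 0.14 without the third libraries (adjusted p = 9.82e-06). With single libraries left out it ran from -1.09 to -0.93 and missed the threshold in 8 of the 12 fits, with adjusted p from 0.0845 to 0.108. Against the Ctrl background the difference was 0.72 without the third libraries, where Ctrl_NC was at 16.24, 16.21 and 17.8 CPM and Ctrl_hnRNPK at 18.3, 21.9 and 17.7 CPM.

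MRPS18A and its paralogs are set side by side here. MRPS18A was at 8.33, 8.94 and 18.3 CPM in Ctrl_hnRNPK and at 12.4, 13.3 and 29.2 CPM in CRLM1_hnRNPK, below the NC libraries of each background in all but the third library, and at 42.2, 46.7 and 33.3 CPM in Antisense_hnRNPK, where it overlapped Antisense_NC (log2 fold change 0.10, adjusted p = 0.491). Without the third libraries its interaction was 1.03 ± 0.15 for Antisense minus Ctrl (adjusted p = 8.42e-05) and -0.91 ± 0.14 for CRLM1 minus Antisense (adjusted p = 2.33e-05). MRPS18C rose by 0.59 in Antisense_hnRNPK (adjusted p = 0.000157) to a mean of 26.6 CPM, and MRPS18B was at -0.05 there with a mean of 90.9 CPM. MRPS30 was at 0.05. The other differences for Antisense minus Ctrl without the third libraries included MRPS11 (0.82), MRPL21 (0.64), MRPL54 (0.61) and MRPL20 (0.59), with MRPL19 (-0.52) and MRPS27 (-0.31) in the other direction.

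Large and small subunit were compared in each library as the mean log2 CPM of the 48 MRPL genes minus that of the 30 MRPS genes. The difference was 0.434, 0.452 and 0.458 in Ctrl_NC, and its group means were 0.448 ± 0.0124 in Ctrl_NC, 0.413 ± 0.0117 in CRLM1_NC, 0.377 ± 0.0280 in Antisense_NC, 0.404 ± 0.0407 in Ctrl_hnRNPK and 0.448 ± 0.0177 in CRLM1_hnRNPK (SD, n = 3). In Antisense_hnRNPK it was 0.227, 0.139 and 0.263, a mean of 0.210 ± 0.0638, and all 3 libraries were below the lowest of the other 15 (0.346). With the subunit taken from the structure, where MRPS30 and MRPS18A count as large and MRPS36 as neither, the means were 0.360, 0.369, 0.374, 0.319, 0.388 and 0.225 in the same order. The fall of this mean score by letter from Ctrl_NC over CRLM1_NC to Antisense_NC was not seen by structure. By structure the Ctrl_hnRNPK libraries were at 0.279, 0.287 and, for the third, 0.391. Those of Antisense_hnRNPK were at 0.245, 0.164 and 0.267, so the first 2 Ctrl_hnRNPK libraries lay close above them. As the genes were chosen with earlier results known, no p is given for this score. The median GC content was 49.8% for large and 46.5% for small subunit genes, and with the GC and length trend removed the median log2 fold change in Antisense_hnRNPK was -0.01 for the large and 0.09 for the small subunit, against -0.06 and 0.17 before.

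**Figure D5:**
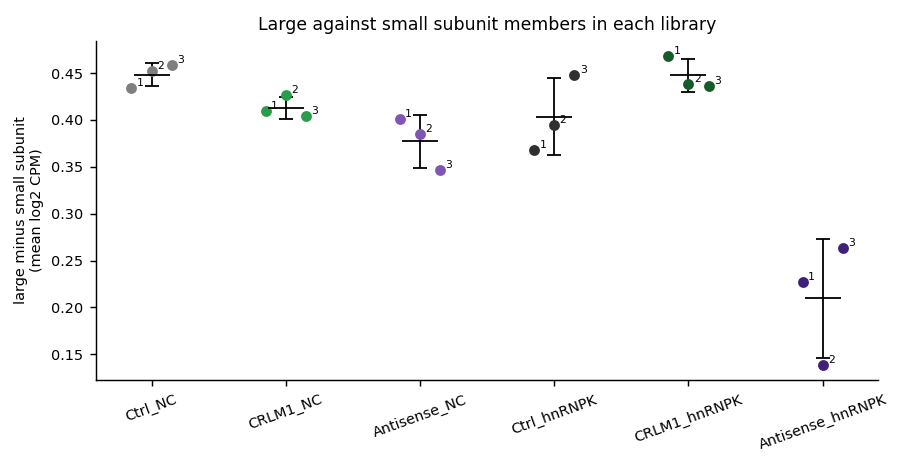
Mean log2 CPM of the 48 MRPL genes minus that of the 30 MRPS genes (y axis, which does not start at 0) in each of the 18 libraries, numbered by replicate, with the mean ± SD of 3 libraries per group. The Antisense_hnRNPK libraries lie at 0.139 to 0.263 and all other libraries at 0.346 or above.

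By origin, 47 of the proteins have a bacterial homolog and 30 are mitochondria-specific. In Antisense_NC against Ctrl_NC 20 of the 47 were higher and 10 lower (median 0.11), and 12 of the 30 were higher and 11 lower (median 0.00). In Antisense_hnRNPK against Antisense_NC the counts were 19 and 15 (median 0.08), and 13 and 9 (median -0.00). Within the MRPS genes by letter, whatever their place in the structure, 11 of the 12 mitochondria-specific proteins passed in Antisense_NC, 7 higher and 4 lower. Of the 17 genes classed as having a bacterial homolog, the readthrough gene included, 12 passed, 8 higher and 4 lower. The shares of all genes tested that passed were 66.5% and 63.9% in these comparisons, and no test was made between the classes.

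Mitoribosomal proteins with other symbols moved both ways too. Of the 6 tested, 2 were higher and 3 lower in Antisense_NC against Ctrl_NC, and 3 higher and 2 lower in Antisense_hnRNPK against Antisense_NC. Of all genes tested 66.5% and 63.9% passed in these comparisons, and the counts of this and the next 3 sets are to be read beside those shares. With the GC and length trend removed the counts were 3 higher and 2 lower, and 3 and 0, beside 64.3% and 39.1% of all genes, and AURKAIP1 turned from -0.30 to 0.15 in Antisense_NC and from -0.41 to 0.32 in Antisense_hnRNPK. Before that removal, in Antisense_hnRNPK PTCD3 (0.83), ICT1 (0.53) and DAP3 (0.40) rose and AURKAIP1 (-0.41) and GADD45GIP1 (-0.39) fell. Of 17 mitochondrial translation factors 6 were higher and 4 lower in Antisense_NC, where the release factor gene C12orf65 rose by 2.62 on the log2 scale, the translational activator TACO1 by 1.10 and the elongation factor TSFM by 1.01, and 11 were higher and 2 lower in Antisense_hnRNPK, where the initiation factor MTIF2 rose by 1.20 and GFM2, which recycles ribosomes, by 1.05. TUFM, the mitochondrial elongation factor Tu, fell by 0.67 in Ctrl_hnRNPK and by 0.49 in CRLM1_hnRNPK, both without the third library, and by 0.81 in Antisense_hnRNPK. With the trend removed 5 translation factors were higher and 4 lower in Antisense_NC, and 4 and 2 in Antisense_hnRNPK.

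Of 22 assembly factors tested, 3 were higher and 1 lower in CRLM1_NC against Ctrl_NC, and 13 and 3 in Antisense_NC. There the helicase gene DDX28 (2.27 ± 0.34), the rRNA methyltransferase FTSJ2 (1.28) and MALSU1 (1.10), a factor of late large-subunit assembly, rose and YBEY (-0.69) fell. The value of DDX28 rested on low levels, with means of 0.585 CPM in Ctrl_NC and 2.91 CPM in Antisense_NC. In Antisense_hnRNPK 9 were higher and 6 lower, with METTL15 (1.16), GTPBP10 (1.07) and FASTKD2 (0.99) up and MPV17L2 (-1.06), ERAL1 (-0.70) and DHX30 (-0.69) down. Of 11 regulators of mitochondrial transcription and biogenesis 7 were higher and 2 lower in Antisense_NC. GABPB1, a subunit of the ETS factor GABP, rose by 0.95, PPRC1 by 0.73 and NRF1 by 0.70, and MYC (-1.05) and ESRRA (-0.62) fell. In Antisense_hnRNPK TFAM, which packages mitochondrial DNA, rose by 0.80 and GABPA by 0.74, while POLRMT (-1.02), the mitochondrial RNA polymerase, PPRC1 (-0.93) and MYC (-0.82) fell. With the trend removed the assembly factors had 14 higher and 3 lower in Antisense_NC and 10 and 7 in Antisense_hnRNPK, and the regulators 5 and 3, and 1 and 4. GABPB1 was then at 0.54 in Antisense_NC, and in Antisense_hnRNPK TFAM was at 0.07 (adjusted p = 0.511) and GABPA at 0.04 (adjusted p = 0.793). The sets are described by their counts, and no test was made on them.

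The rRNAs of the mitochondrial ribosome rose in CRLM1_NC by 0.20 (MT-RNR1) and 0.17 (MT-RNR2) and in Antisense_NC by 0.54 and 0.72 over Ctrl_NC. With all libraries neither passed in Ctrl_hnRNPK (0.37 and 0.68) or CRLM1_hnRNPK (0.48 and 0.53). Without the third library they rose by 0.57 and 0.94 in Ctrl_hnRNPK and by 0.52 and 0.71 in CRLM1_hnRNPK. In Antisense_hnRNPK MT-RNR1 fell by 0.52 on the log2 scale (adjusted p = 0.00205), and MT-RNR2 was at 0.21 (adjusted p = 0.239), with 31283, 24071 and 41346 CPM. The ratio of MT-RNR2 to MT-RNR1 counts was 13.1, 12.9 and 14.3 in Antisense_hnRNPK and at most 9.36 in the other libraries. These counts depend on how rRNA was depleted, which was not given in the sources used here.

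The tables list 13 further genes with an MRPL or MRPS stem, 12 pseudogenes and the antisense gene MRPL23-AS1. MRPL23-AS1 had 1 to 30 counts. Among the pseudogenes MRPS31P5 had 18 to 119 counts, beside 39 to 342 for MRPS31, so that values of MRPS31 can be affected by reads that match both. Median counts of the other pseudogenes were 0 to 4.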

How the data were processed

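RNA of 18 HCT116 cultures was sequenced in 151-nucleotide pairs on a NextSeq 500 after library preparation with the KAPA RNA HyperPrep kit. Per the labels and the study's methods, the authors trimmed reads with the FASTX-Toolkit, aligned them with TopHat2 to GRCh38 with up to 4 mismatches, and deposited counts of uniquely mapped reads per Gencode v23 gene and FPKM values calculated from them. Tool versions and the strand setting were not given in the sources used here.

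Counts of 31004 genes were tested with edgeR 4.0.16 (robust quasi-likelihood F test, TMM, filterByExpr) in R 4.3.3, on the groups of each comparison, with p-values adjusted by Benjamini-Hochberg for every gene in the fit and a threshold of 0.05. A log2 fold change is the first group over the second. CPM used TMM factors of the 18 libraries together, and 0.1 was added before library means of log2 CPM were taken. The deposited FPKM (30879 genes) were tested as log2(FPKM + 1) with limma 3.58.1 in genes with a mean of at least 0.1. Other alternatives were DESeq2 1.42.0, RLE size factors, no filter on low counts, one fit of all libraries, a replicate block, leaving out each library, and removal of each library's trend with GC content and length (lowess, span 0.5). GC content was that of the longest protein-coding transcript of Gencode v44 (96.8% of genes, all 78 of the family), which also gave the coordinates on GRCh38. A gene at 3 counts or fewer was taken to be at the floor. Scripts were tested on simulated counts.

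The genes named in the text are the 3 most and 2 least abundant of each subunit, up to 4 of each subunit with the highest and 4 with the lowest log2 fold change among those past the threshold in each comparison (from the fit without the third hnRNPK library where none passed with it), the MRPS18 paralogs, genes whose letter does not give the subunit, both rRNAs, and up to 3 genes in each direction of the lists of mitoribosomal proteins under other symbols, translation factors, assembly factors and regulators. The members and lists were chosen with earlier results of these data known. Within each group no 2 libraries agreed within sampling noise (chi-square per degree of freedom 2.99 to 173), and all were counted as separate samples. That check cannot tell separate cultures from separate preparations of the same RNA.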

Additional observations from a re-analysis of the deposited data

Results flagged for a closer look

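The effect of the hnRNPK construct on MRPL15 differed between the CRLM1 and antisense backgrounds by -1.02 ± 0.19 (SE) on the log2 scale with all libraries (adjusted p = 0.0270, edgeR's quasi-likelihood interaction test), and this tested difference between groups is what marks it. The level was higher with the construct in 3 of 3 antisense libraries than in any Antisense_NC library, and the CRLM1 groups overlapped. Of all genes tested 1.12% passed this interaction with all libraries. With single libraries left out the value ran from -1.09 to -0.93, and it missed the threshold in 8 of the 12 fits (adjusted p 0.0845 to 0.108), those without the first or second Antisense_hnRNPK library or any 1 of the Antisense_NC or CRLM1_NC libraries. No group had more than 3 libraries, so single libraries were not screened as outliers.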

How the results depend on the processing

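The third Ctrl_hnRNPK and CRLM1_hnRNPK libraries limit the hnRNPK comparisons. Leaving out each library in turn, the number of genes of the family that passed was 14 to 21 in CRLM1_NC against Ctrl_NC, 50 to 56 in Antisense_NC against Ctrl_NC, 42 to 46 in CRLM1_NC against Antisense_NC, 0 to 54 in Ctrl_hnRNPK, 0 to 52 in CRLM1_hnRNPK and 53 to 57 in Antisense_hnRNPK, and 0 to 0, 0 to 7 and 0 to 25 in the interactions CRLM1 minus Ctrl, Antisense minus Ctrl and CRLM1 minus Antisense. Without replicate 3 of every hnRNPK group the interactions had 2, 14 and 31, beside 3.45%, 16.0% and 26.5% of all genes. In a single fit of all libraries the first 3 comparisons had 0, 19 and 9, beside 0.651%, 32.5% and 15.0% of all genes. With the GC and length trend removed and the third libraries left out, an alternative chosen after seeing the data, Ctrl_hnRNPK had 28 and CRLM1_hnRNPK 30. Of all genes 24.7% and 26.2% passed there, and the interactions had 3, 14 and 32 genes of the family. Antisense minus Ctrl had 2 by DESeq2, 2 on log2(FPKM + 1), 4 with the trend removed and 5 with trend and block. CRLM1 minus Antisense had 8 by DESeq2, 2 with no filter, 10 on log2(FPKM + 1), 2 on it with no filter, 4 with a pseudocount of 0.1, 12 with the trend removed and 12 with trend and block. Where no share of all genes stands beside a count in this paragraph, the count cannot be set against other genes.

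The median log2 fold change of the large minus that of the small subunit was -0.071, -0.16, 0.053, -0.15, -0.023 and -0.23 in the 6 comparisons in the same order. It ran from -0.12 to -0.039, -0.17 to -0.13, 0.013 to 0.069, -0.27 to -0.058, -0.16 to 0.053 and -0.35 to -0.14 with each library left out. With the GC and length trend removed it was -0.0095, 0.081, -0.095, -0.0090, 0.089 and -0.097, with trend and block -0.0083, 0.083, -0.096, -0.014, 0.092 and -0.099, and with the trend removed and the third libraries out 0.047, 0.072 and -0.099 in the hnRNPK comparisons. On log2(FPKM + 1), with or without the filter, it was -0.043 in CRLM1_NC, -0.13 in Antisense_NC and -0.14 in Antisense_hnRNPK. With subunits taken from the structure it was -0.048 in CRLM1_NC, -0.090 in Antisense_NC and -0.046 in CRLM1_hnRNPK. The direction between subunits turned with GC removal in Antisense_NC against Ctrl_NC, in CRLM1_NC against Antisense_NC and in CRLM1_hnRNPK, and in Ctrl_hnRNPK where the third libraries were also out, and the cause was not tested.

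Named genes that changed sign did so mostly under removal of the trend, given alone, with the block, and with the third libraries out where that also turned it. MRPL41 in Antisense_NC was at 0.0567 and 0.0569 and in Antisense_hnRNPK at 0.056 with the trend alone removed, MRPS36 in Ctrl_hnRNPK at -0.12, -0.11 and -0.18, MRPS10 in Ctrl_hnRNPK at -0.0070 and -0.014, MRPL12 in CRLM1_hnRNPK at 0.0088 and 0.0036, and MRPS34 in Antisense_hnRNPK at 0.12, 0.11 and 0.021. With single libraries left out MRPL12 in CRLM1_hnRNPK ran from -0.67 without the third to 0.041 without the first construct library. The CRLM1 minus Ctrl interaction of MRPS2 ran from -0.13 without the third CRLM1_hnRNPK to 0.73 without the third Ctrl_hnRNPK library, and was -0.053 without the second. The Antisense minus Ctrl interaction of MRPL19 was 0.023 on log2(FPKM + 1), with or without the filter, and 0.015 with a pseudocount of 0.1. Within each of the 6 comparisons, libraries with the same replicate number did not deviate together (correlations of -0.0686 to 0.0337). The numbers were therefore not taken as pairs. The hnRNPK groups were not set against each other in that check. Replicate 3 was the highest of Ctrl_hnRNPK and of CRLM1_hnRNPK for POLRMT, at 86.5 and 84.1 CPM. For LRPPRC replicate 3 was the lowest of both groups, at 137 and 104 CPM. Whether these libraries deviated together over all genes was not tested. With the replicate number as a block alone 19, 53, 47, 0, 0 and 55 genes passed in the 6 comparisons and 0, 0 and 1 in the interactions.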
